A study of Mus musculus with 14 samples.

Results

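The immunoproteasome and peptide loading genes were taken as 9 genes: the inducible catalytic subunits Psmb8, Psmb9 and Psmb10, the proteasome activator subunits Psme1 and Psme2, the transporter subunits Tap1 and Tap2, the loading factor Tapbp, and B2m, the light chain of MHC class I. All probe sets that the platform annotation gives to one of these symbols alone were used, which came to 13 of the 22690 probe sets on the array, for 8 of the 9 genes. Of these, 10 probe sets passed the filter on low intensities, and all 8 genes kept at least 1. The probe set annotated to Psme2 also carries Psme2b and was given no gene name, so Psme2 has no value here. A gene with several probe sets is described by the one of highest mean intensity, with the others beside it.

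Liver RNA was measured on 14 arrays of 3 groups: 5 from liver given an adenovirus that carries a short hairpin RNA (shRNA) against Jnk1, 4 from liver given an adenovirus with an shRNA against GFP, and 5 from vehicle-treated liver. Jnk1 is the stress kinase encoded by Mapk8, and GFP is a jellyfish protein that mice lack. All groups were C57BL/6J mice with diet-induced obesity. The labels give no age, virus dose or time after infection, and do not say that each array came from a separate mouse, so the p-values rest on the spread among arrays, which may be technical. The labels number the GFP arrays 1, 2, 3 and 5.

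Every nucleated cell cuts its own proteins into peptides in the proteasome and shows some of them on MHC class I at its surface. Interferons replace the constitutive catalytic subunits with inducible ones, and this form is called the immunoproteasome. The peptides pass into the endoplasmic reticulum through the Tap1 and Tap2 transporter, and tapasin, the product of Tapbp, holds the class I heavy chain and B2m beside it until a peptide is bound. In virus-infected liver this set of genes is known as part of the interferon response that makes infected hepatocytes visible to CD8 T cells.

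Several of the genes are neighbours in the mouse genome. Psmb9, Tap1, Psmb8 and Tap2 are neighbouring protein-coding genes on chromosome 17, in that order, and Tapbp lies on the same chromosome, so 5 of the 9 genes are on it. RefSeq promoter windows of GRCm38.p6, from 250 bases before the transcription start to 50 after it, were found for 8 of the 9 genes, all but Tap2. Psmb9 and Tap1 are transcribed away from each other from starts with 225 bases between them, so their windows of 300 bases share 275. The stretch between the starts (chr17:34187331-34187555, plus strand) is shown because it lies in front of both genes, and it held no match to the motifs searched:
Psmb9 to Tap1: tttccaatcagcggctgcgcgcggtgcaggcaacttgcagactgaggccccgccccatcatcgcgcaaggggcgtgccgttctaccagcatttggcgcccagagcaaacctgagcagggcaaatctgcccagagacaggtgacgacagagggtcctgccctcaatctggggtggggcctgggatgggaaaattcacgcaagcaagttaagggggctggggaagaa
The motifs searched on both strands were the interferon response element core (GAAA, 2 bases of any kind, GAAA), the gamma activated site TTCNNNGAA, and the NF-kB consensus. They occurred in 3.44%, 8.3% and 4.51% of all 32851 promoter windows. The Psmb8 window held a gamma activated site at positions −97 to −89 from the start (part shown: chr17:34198063-34198141, plus strand), and the B2m window held an interferon response element core at positions −139 to −130 and an NF-kB match at positions −126 to −117 (part shown: chr2:122147513-122147592, plus strand). They are shown with the matches in capitals because these 2 genes behaved unlike each other on the arrays:
Psmb8: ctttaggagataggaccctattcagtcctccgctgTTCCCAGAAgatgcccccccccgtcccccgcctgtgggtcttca
B2m: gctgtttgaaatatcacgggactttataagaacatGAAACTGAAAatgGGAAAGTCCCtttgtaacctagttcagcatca
In Psme1, on chromosome 14, the interferon response element core lay at positions 10 to 19, counting the first transcribed base as 1, as TTTCGCTTTC on the plus strand. The windows of Psmb9, Psmb10, Psme2, Tap1 and Tapbp held no match, which says only that these letters are not in these windows.

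The arrays showed the labelled knockdown. Mapk8 had normalized intensities of 58.8 to 82.2 on the Jnk1 shRNA arrays, 159 to 182 on the GFP shRNA arrays and 149 to 186 on the vehicle arrays, and its log2 fold change for Jnk1 shRNA against GFP shRNA was −1.31 ± 0.11 (SE; limma, adjusted p = 3.50e-07). Its other probe sets were at −1.12 and −0.12 (0.561). GFP array 2 stood apart, with a deposited median intensity of 58.3 against 45.8 to 47.8 on the other 3. The bacterial spike-in controls averaged 8.39 ± 0.32 (SD, log2) on the Jnk1 arrays, 8.89 ± 0.07 on the GFP arrays and 8.90 ± 0.09 on the vehicle arrays (n = 5, 4 and 5). The part of either in the results was not tested beyond fits that left out array 2 or took the spike-in level as covariate. The liver labels were borne out by albumin (Alb), at 5207 to 6148 on the Jnk1 arrays, 5467 to 5963 on the GFP arrays and 5066 to 5697 on the vehicle arrays.

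Most of these genes were higher with either virus than with vehicle, to different degrees. With GFP shRNA, 6 of the 8 genes were higher than with vehicle and 0 were lower. With Jnk1 shRNA, 7 of 8 were higher than with vehicle and 0 were lower. Between the viruses the genes split: Psmb9, Psmb10, Tap1 and Tapbp were lower with Jnk1 shRNA than with GFP shRNA, Psme1 was higher, and Psmb8, Tap2 and B2m did not pass the test. Calls are at an adjusted p under 0.05 in limma over 13575 probe sets. At an unadjusted p under 0.05 the counts of lower genes against vehicle were also 0 for both viruses. In bulk liver, fewer cells that express a gene and less RNA per cell cannot be told apart.

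The background differed greatly between the comparisons. For GFP shRNA against vehicle, 2.05% of all tested probe sets were higher and 0.53% lower, and 3.53% and 2.77% had groups that did not overlap in these directions. For Jnk1 shRNA against vehicle, 18.9% were higher and 18.7% lower, with 14.3% and 13.4% not overlapping. For Jnk1 shRNA against GFP shRNA, 17.3% were higher and 15.8% lower, with 14.9% and 13.3% not overlapping. Of the 8 genes, 7 for GFP shRNA and 6 for Jnk1 shRNA lay above vehicle without overlap, and between the viruses 1 lay above and 4 below. The genes' median log2 fold change was 0.87 for GFP shRNA against vehicle and 0.81 for Jnk1 shRNA against vehicle, beside −0.02 over all probe sets in both. Between the viruses it was −0.18, beside −0.01. The 2 comparisons with vehicle share the vehicle arrays, and each virus group enters 2 comparisons.

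**Figure D1:**
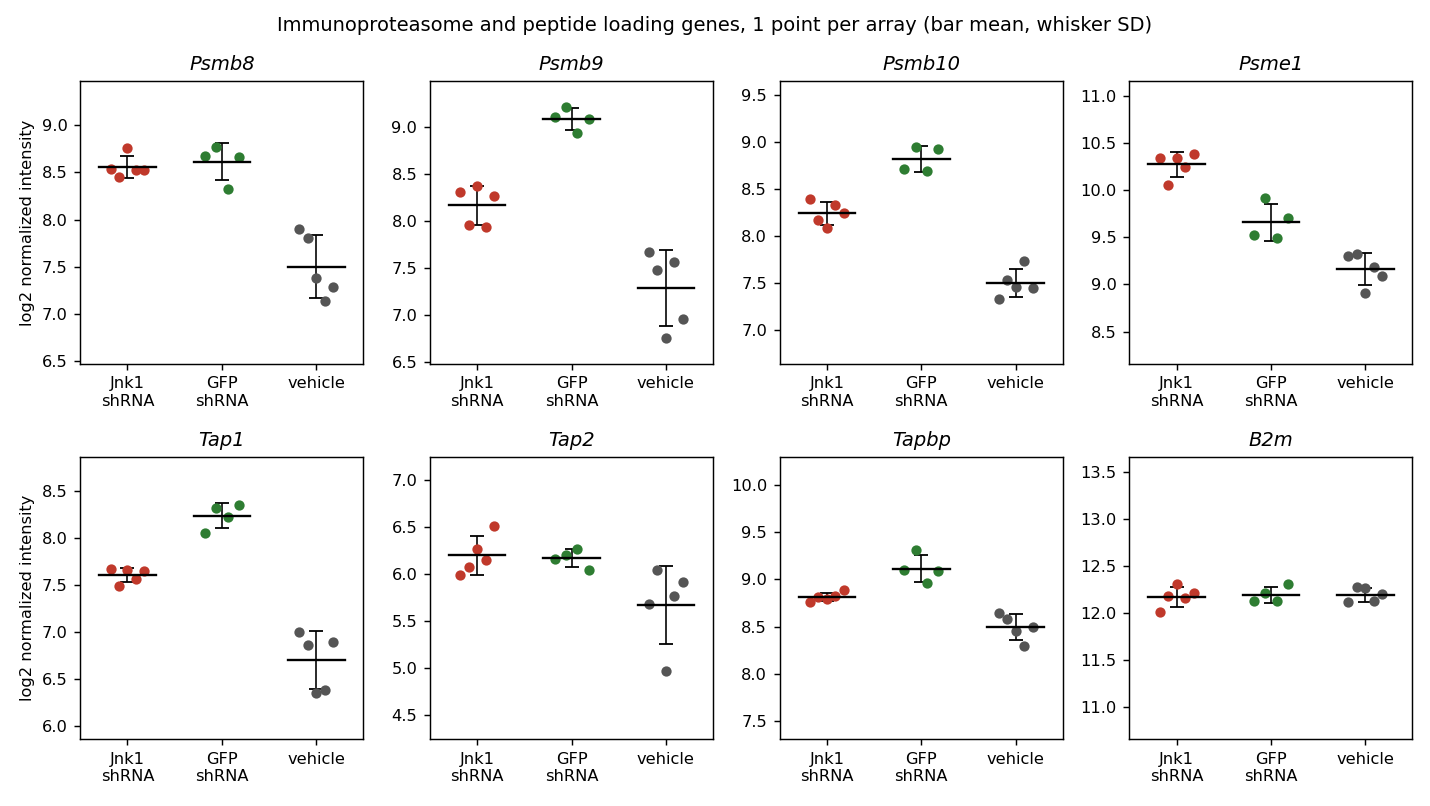
Log2 normalized intensity of the 8 genes on each array, for Jnk1 shRNA (n = 5), GFP shRNA (n = 4) and vehicle (n = 5). Points are arrays, bars are group means and whiskers are SD, and every panel spans the same number of log2 units. Psmb9, Psmb10, Tap1 and Tapbp lie in 3 steps with the Jnk1 arrays in the middle, Psme1 is highest on the Jnk1 arrays, and B2m is level after quantile normalization.

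Psmb9 and Psmb10 held an intermediate level on the Jnk1 arrays. Psmb9, the inducible subunit beta 1i that cuts after acidic residues far less than the subunit it replaces, had normalized intensities of 317, 249, 331, 245 and 308 on the Jnk1 arrays, 551, 594, 490 and 543 on the GFP arrays, and 204, 179, 108, 189 and 125 on the vehicle arrays. No group overlapped another. The log2 fold change was −0.92 ± 0.17 for Jnk1 shRNA against GFP shRNA (SE; limma, adjusted p = 5.11e-04), 0.88 ± 0.16 for Jnk1 shRNA against vehicle (3.31e-04) and 1.80 ± 0.17 for GFP shRNA against vehicle (8.35e-06).

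Psmb10, the inducible subunit beta 2i, showed the same order. It had 337, 287, 272, 321 and 303 on the Jnk1 arrays, 418, 494, 413 and 486 on the GFP arrays, and 161, 186, 176, 213 and 175 on the vehicle arrays, again with no overlap between groups. Its log2 fold change was −0.57 ± 0.10 for Jnk1 shRNA against GFP shRNA (limma, adjusted p = 2.88e-04), 0.74 ± 0.09 against vehicle (9.65e-06), and 1.31 ± 0.10 for GFP shRNA against vehicle (1.03e-06).

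Psmb8, the inducible chymotrypsin-like subunit beta 5i, was higher with both viruses, at levels that overlapped. It had 372, 349, 434, 370 and 370 on the Jnk1 arrays, 410, 438, 321 and 407 on the GFP arrays, and 238, 224, 167, 140 and 156 on the vehicle arrays. All 9 virus arrays were above all 5 vehicle arrays. The log2 fold change was 1.06 ± 0.14 for Jnk1 shRNA against vehicle (limma, adjusted p = 1.50e-05) and 1.11 ± 0.15 for GFP shRNA against vehicle (3.45e-04). Between the viruses it was −0.05 ± 0.15 (adjusted p = 0.821), with a 95% interval of −0.36 to 0.26. Psmb8 is the gene with the gamma activated site shown above, and the part of that site was not tested.

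Psme1, the alpha subunit of the PA28 cap that opens the proteasome core, went the other way between the viruses. It had 1300, 1066, 1300, 1211 and 1339 on the Jnk1 arrays, 735, 967, 722 and 833 on the GFP arrays, and 633, 641, 481, 581 and 546 on the vehicle arrays. The Jnk1 arrays were the highest and no group overlapped another. Its log2 fold change was 0.62 ± 0.10 for Jnk1 shRNA against GFP shRNA (limma, adjusted p = 2.65e-04), 1.11 ± 0.10 for Jnk1 shRNA against vehicle (2.81e-07) and 0.50 ± 0.10 for GFP shRNA against vehicle (0.0145). The last call rested on few arrays: it was 0.41 (adjusted p = 0.0548) without GFP array 2 and 0.48 (0.0529) without GFP array 5. Psme1 was lowest among the Jnk1 arrays on array 2, which had the highest spike-in level of that group, 8.79. It was highest, at 1339, on array 5, which had the next highest spike-in level, 8.52. When the fit took the spike-in level as covariate, the difference between the viruses was 0.51 (adjusted p = 0.0309).

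The transporter genes differed from each other. Tap1, which with Tap2 forms the pump for peptides, had 203, 180, 203, 190 and 201 on the Jnk1 arrays, 266, 319, 298 and 326 on the GFP arrays, and 128, 117, 81.9, 83.7 and 119 on the vehicle arrays. It followed Psmb9, with the Jnk1 arrays between the other groups and no overlap. The log2 fold change was −0.63 ± 0.13 for Jnk1 shRNA against GFP shRNA (limma, adjusted p = 0.00169), 0.90 ± 0.12 for Jnk1 shRNA against vehicle (2.82e-05) and 1.53 ± 0.13 for GFP shRNA against vehicle (4.63e-06). The other 3 Tap1 probe sets were left out by the filter, with mean intensities of 7.90, 4.39 and 4.35 over all arrays. At such intensities their fold changes are not given.

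Tap2 was dimmer and its changes were less certain. It had 63.3, 67.2, 76.7, 71.0 and 91.3 on the Jnk1 arrays, 71.1, 73.4, 76.9 and 65.8 on the GFP arrays, and 51.3, 65.7, 31.4, 54.2 and 60.1 on the vehicle arrays. The GFP arrays lay just above all vehicle arrays, while 1 Jnk1 array lay below the highest vehicle array. The log2 fold change against vehicle was 0.52 ± 0.17 for Jnk1 shRNA (limma, adjusted p = 0.0257) and 0.49 ± 0.18 for GFP shRNA (0.207, 95% interval 0.10 to 0.88). The first was 0.35 (adjusted p = 0.0521) without vehicle array 3, 0.51 (0.0530) without Jnk1 array 3 and 0.44 (0.0738) without Jnk1 array 5. Between the viruses Tap2 differed by 0.03 ± 0.18 (adjusted p = 0.914), with an interval of −0.36 to 0.42.

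Tapbp was called in all 3 comparisons. Its brighter probe set had 435, 450, 443, 453 and 473 on the Jnk1 arrays, 548, 635, 499 and 546 on the GFP arrays, and 401, 384, 349, 314 and 361 on the vehicle arrays. No group overlapped another. The log2 fold change was −0.30 ± 0.08 for Jnk1 shRNA against GFP shRNA (limma, adjusted p = 0.0117), 0.32 ± 0.08 for Jnk1 shRNA against vehicle (0.00421) and 0.62 ± 0.08 for GFP shRNA against vehicle (4.59e-04). The first depended on the scaling: with the arrays scaled to the same median it was −0.08 (adjusted p = 0.588).

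On the second Tapbp probe set the Jnk1 arrays overlapped both other groups, while the GFP arrays lay above all vehicle arrays. It had 209, 174, 219, 175 and 177 on the Jnk1 arrays, 236, 322, 217 and 232 on the GFP arrays, and 206, 183, 129, 176 and 172 on the vehicle arrays. Its log2 fold change was −0.39 ± 0.14 for Jnk1 shRNA against GFP shRNA (limma, adjusted p = 0.0422) and −0.27 (0.148) without GFP array 2. Against vehicle it was 0.15 ± 0.13 for Jnk1 shRNA (0.411) and 0.54 ± 0.14 for GFP shRNA (0.0539).

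B2m did not pass the test in any comparison. Its brighter probe set had 4133, 4655, 5066, 4571 and 4740 on the Jnk1 arrays, 4470, 4740, 4494 and 5066 on the GFP arrays, and 4433, 4947, 4920, 4470 and 4708 on the vehicle arrays. The log2 fold changes were −0.02 ± 0.06 for Jnk1 shRNA against GFP shRNA (95% interval −0.15 to 0.11), −0.02 ± 0.06 for Jnk1 shRNA against vehicle and 0.00 ± 0.06 for GFP shRNA against vehicle, with adjusted p-values of 0.827, 0.802 and 0.995 in limma. The groups overlapped. The second probe set ran from 3908 to 4494 on the Jnk1 arrays, 3949 to 4341 on the GFP arrays and 3619 to 4376 on the vehicle arrays, and its log2 fold changes were −0.03, 0.06 and 0.09. This result depended on the quantile normalization. As deposited, the brighter probe set ran from 3239 to 4366 on the Jnk1 arrays, 4461 to 5805 on the GFP arrays and 4096 to 5770 on the vehicle arrays. It was then lower by a log2 fold change of −0.30 (adjusted p = 0.0451) for Jnk1 shRNA against GFP shRNA and −0.34 (0.0166) for Jnk1 shRNA against vehicle.

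**Figure D2:**
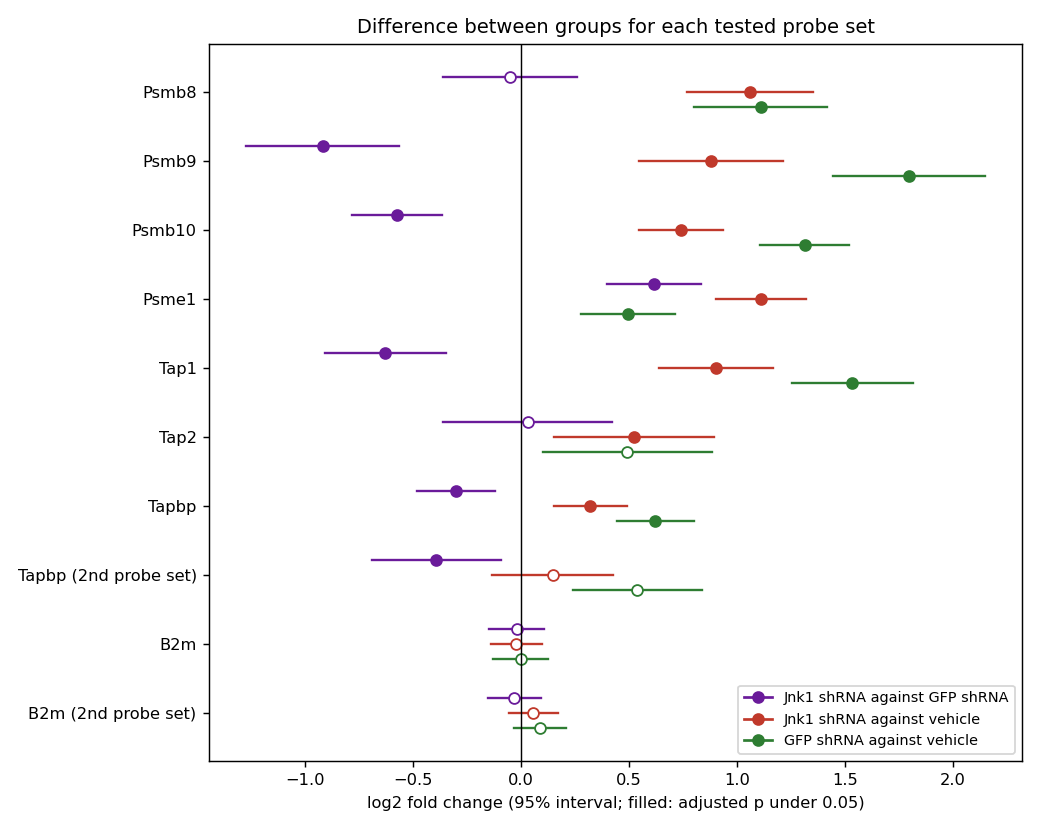
Log2 fold change with its 95% interval for the 10 tested probe sets in the 3 comparisons, from limma. Filled points have an adjusted p under 0.05. GFP shRNA lies to the right of Jnk1 shRNA, both set against vehicle, for Psmb9, Psmb10, Tap1 and Tapbp, and to its left for Psme1.

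The inducible subunits were set against the constitutive subunits whose place they take, array by array, since the core holds one or the other in each site. These differences were added after the values had been seen. Psmb9 minus Psmb6 was 1.68 log2 units lower with Jnk1 shRNA than with GFP shRNA, a change of −1.68 (exact two-sided permutation p = 0.00794, the smallest these group sizes allow). With the vehicle mean set to 0, it was 0.34 ± 0.18 on the Jnk1 arrays, 2.03 ± 0.19 on the GFP arrays and 0.00 ± 0.28 on the vehicle arrays (SD, n = 5, 4 and 5). The lowest GFP array was at 1.75 and the highest Jnk1 array at 0.53. Jnk1 shRNA overlapped vehicle (exact permutation p = 0.0714, and 0.0476 without Jnk1 array 4, neither adjusted).

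Psmb10 minus Psmb7 behaved alike. It averaged 0.19 ± 0.23 on the Jnk1 arrays, 1.34 ± 0.07 on the GFP arrays and 0.00 ± 0.18 on the vehicle arrays, a change of −1.15 between the viruses (exact permutation p = 0.00794) and an overlap of Jnk1 shRNA with vehicle (p = 0.175, exact permutation). The last depended on the normalization: on the values as deposited, Jnk1 shRNA was 0.38 above vehicle (exact permutation p = 0.0159, not adjusted), and without Jnk1 array 3 it was 0.28 above (0.0238). Psmb8 minus Psmb5 did not: it averaged 0.85 ± 0.08 on the Jnk1 arrays, 1.10 ± 0.20 on the GFP arrays and 0.00 ± 0.24 on the vehicle arrays. The viruses overlapped (change −0.25, exact permutation p = 0.0556), and both lay above vehicle without overlap (exact permutation p = 0.00794 each). Adjusted over the 9 tests by Benjamini-Hochberg, the values at 0.00794 became 0.0119.

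**Figure D3:**
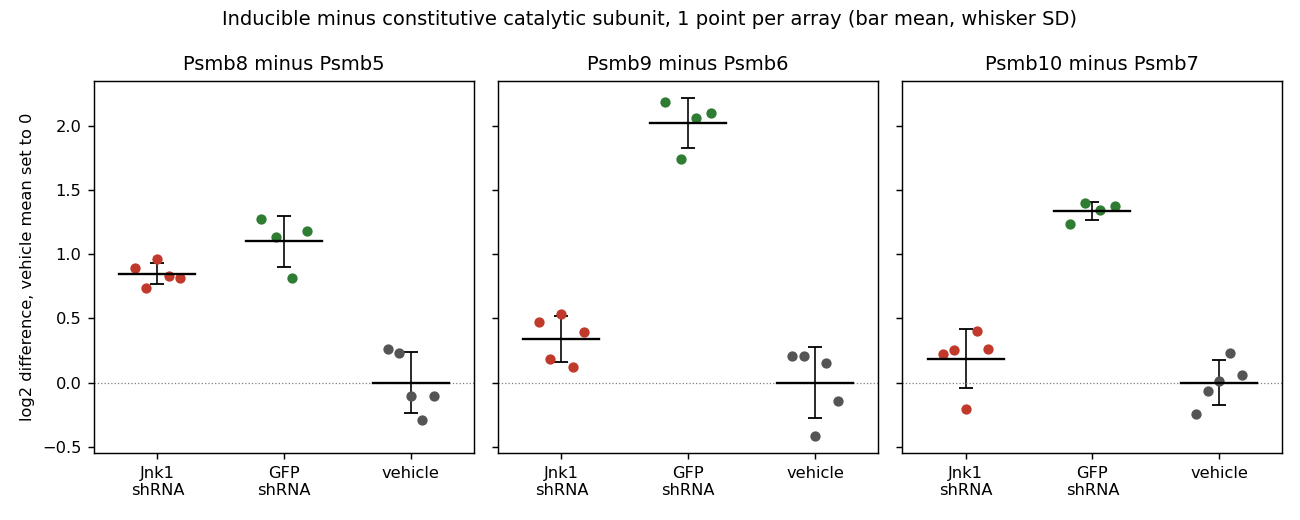
Log2 intensity of each inducible catalytic subunit minus that of its constitutive counterpart on each array, with the vehicle mean set to 0. Points are arrays, bars are means and whiskers are SD. After quantile normalization the Jnk1 arrays overlap vehicle for Psmb9 minus Psmb6 and Psmb10 minus Psmb7, and overlap the GFP arrays for Psmb8 minus Psmb5.

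The constitutive subunits were higher with Jnk1 shRNA. All 3 were higher with Jnk1 shRNA than with GFP shRNA: Psmb6 by a log2 fold change of 0.77 ± 0.11 (limma, adjusted p = 6.03e-05), Psmb7 by 0.58 ± 0.08 (4.66e-05) and Psmb5 by 0.20 ± 0.07 (0.0298). Psmb6 had 684, 656, 686, 674 and 702 on the Jnk1 arrays, 362, 531, 351 and 380 on the GFP arrays, and 528, 465, 435, 510 and 414 on the vehicle arrays. Psmb7 had 2571, 2150, 2802, 2163 and 2260 on the Jnk1 arrays, 1584, 1668, 1449 and 1675 on the GFP arrays, and 1712, 1731, 1559, 1615 and 1495 on the vehicle arrays. For both genes the Jnk1 arrays lay above all others, and the GFP and vehicle arrays overlapped. For GFP shRNA against vehicle 0 of 3 were called by limma, and 0 had an unadjusted p under 0.05. In that comparison Psmb6 was at −0.23 ± 0.11 (adjusted p = 0.336), Psmb7 at −0.03 ± 0.08 and Psmb5 at 0.01 ± 0.07. With the arrays scaled to the same median, or without GFP array 2, 1 of the 3 was called lower there. Between the viruses 2 of 3 were called higher with the spike-in covariate and in the fits that left out GFP array 1, 3 or 5 or Jnk1 array 3 or 5.

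Other proteasome genes followed the constitutive subunits rather than Psmb9 and Psmb10. Of 14 other core and assembly genes, 10 were higher with Jnk1 shRNA than with GFP shRNA and 0 lower (0 also at an unadjusted p under 0.05), with a median log2 fold change of 0.25. Psma7 (0.51 ± 0.10), Psma6 (0.49 ± 0.07), Psmb3 (0.45 ± 0.08) and Psma4 (0.33 ± 0.07), all structural subunits of the core, were among them, and with the spike-in covariate the count was 6. Against vehicle 11 were higher with Jnk1 shRNA, and 0 were called with GFP shRNA, where 3 had an unadjusted p under 0.05, all higher, and 1 was called without vehicle array 1. The activators Psme3 (0.88 ± 0.19) and Psme4 (0.38 ± 0.08) and the inhibitor Psmf1 (0.64 ± 0.11) were also higher with Jnk1 shRNA than with GFP shRNA. Psme1 thus moved between the viruses in the direction of all 3. With GFP shRNA 0 of these 3 were called against vehicle, while Psme1 was higher in the fit of all arrays.

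The class I heavy chains had log2 fold changes between −0.31 and 0.47 over the 3 comparisons. Of 17 listed, 8 were on the array under their own symbol and 6 were tested. For GFP shRNA against vehicle H2-D1, a classical heavy chain (0.41 ± 0.08, adjusted p = 0.0118), and H2-M3, a nonclassical one (0.47 ± 0.12, 0.0429), were higher, and H2-K1, the other classical one, was at 0.18 ± 0.05 (0.0671). None of the 6 was called in that comparison with the arrays scaled to the same median or without GFP array 5, and leaving out any other GFP or vehicle array left 1. Between the viruses Cd1d1, which presents lipids, was higher with Jnk1 shRNA (0.26 ± 0.05), and 0 of 6 were lower (limma; 1 at an unadjusted p under 0.05), against 3 lower as deposited. For Jnk1 shRNA against vehicle H2-D1 (0.37 ± 0.08, adjusted p = 0.00112 in limma) and Cd1d1 (0.43 ± 0.05, 5.30e-06) were higher and 0 were lower. As deposited 1 of the 6 was higher there and 1 lower. Heavy chain genes resemble each other closely, so their probe sets may read more than 1.

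The partners of the loading complex held a large change that the genes above did not show. Pdia3, the disulfide isomerase that joins tapasin in the complex, had intensities of 683 to 890 on the Jnk1 arrays, 1691 to 1954 on the GFP arrays and 1515 to 1985 on the vehicle arrays. Its log2 fold change was −1.30 ± 0.09 for Jnk1 shRNA against GFP shRNA (limma, adjusted p = 3.94e-08), −1.22 ± 0.08 for Jnk1 shRNA against vehicle and 0.08 ± 0.09 for GFP shRNA against vehicle (0.712). Erap1, which trims peptides in the endoplasmic reticulum, was also lower between the viruses (−0.52 ± 0.12, 0.00333), and with the same-median scaling or the spike-in covariate 1 of the 7 partners was lower in place of 2. The tapasin relative Tapbpl was at 0.04 ± 0.15 between the viruses, and at 0.59 ± 0.14 (0.0031) for Jnk1 shRNA and 0.55 ± 0.15 (0.0613) for GFP shRNA against vehicle. Of the 7 tested, 0 were called for GFP shRNA against vehicle, where 2 had an unadjusted p under 0.05, and 1 was called higher as deposited, with the spike-in covariate or without vehicle array 1.

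**Figure D4:**
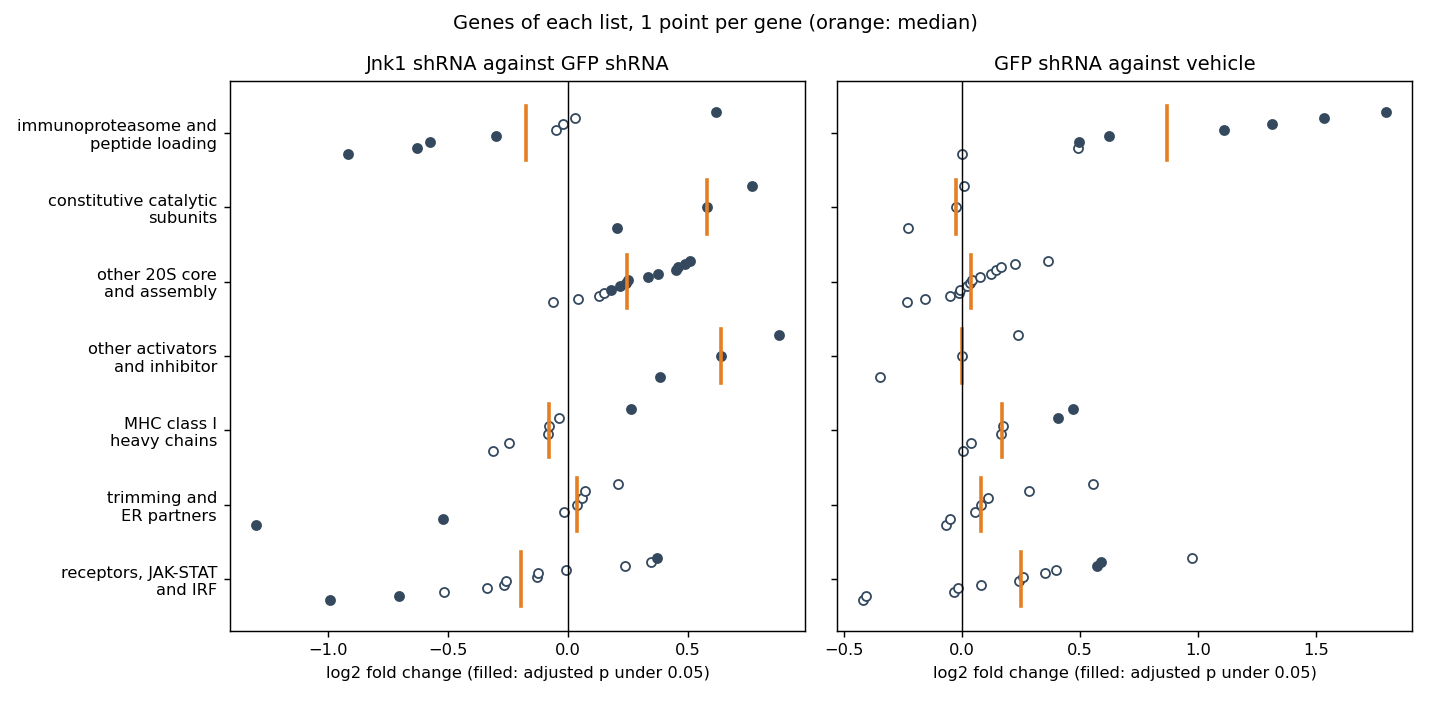
Log2 fold change of each tested gene by list, for Jnk1 shRNA against GFP shRNA (left) and GFP shRNA against vehicle (right). Filled points have an adjusted p under 0.05 and orange lines are list medians. With GFP shRNA the immunoproteasome and peptide loading genes have a median of 0.87 while the constitutive catalytic subunits have −0.03, and between the viruses the medians are −0.18 and 0.58.

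Genes that carry the interferon signal were also measured. Of 16 listed, 14 were on the array and 12 were tested. Between the viruses, Jak1, a kinase of the interferon receptors (−0.70 ± 0.08, adjusted p = 8.67e-06), and Irf8, a transcription factor of myeloid cells (−0.99 ± 0.31, 0.0229), were lower with Jnk1 shRNA, and Stat2, which acts in the type I response (0.37 ± 0.13, 0.0356), was higher. The Stat2 call was lost as deposited, with the spike-in covariate, and without GFP array 1, 3 or 5 or Jnk1 array 1, 3 or 5, where 0 of 12 were called higher, and without GFP array 2 only 1 was called lower. Irf1, an activator of class I and immunoproteasome genes, was at −0.52 ± 0.26 (0.139) and ranged from 166 to 303 on the Jnk1 arrays, 240 to 695 on the GFP arrays and 187 to 323 on the vehicle arrays. For GFP shRNA against vehicle Stat2 (0.57 ± 0.13, 0.0229) and Irf9 (0.59 ± 0.14, 0.0329) were higher and 0 of 12 were lower, also at an unadjusted p under 0.05. In that comparison 0 of 12 were called with the arrays scaled to the same median or without vehicle array 3 or 5 or GFP array 1 or 5.

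Markers of macrophages and of MHC class II cells were mostly lower with Jnk1 shRNA than with GFP shRNA, and against vehicle the 2 lists differed. Of 9 tested macrophage and Kupffer cell markers, 8 were lower with Jnk1 shRNA than with GFP shRNA, and their mean log2 level was 7.58 to 7.90 on the Jnk1 arrays, 8.36 to 8.51 on the GFP arrays and 8.06 to 8.72 on the vehicle arrays. Against vehicle 0 were higher and 5 lower with Jnk1 shRNA by limma (1 and 6 at an unadjusted p under 0.05). With GFP shRNA 2 were higher and 2 lower (5 and 2 at an unadjusted p under 0.05), and the median log2 fold change was 0.33. Marco and Cd163, of the same list, were left out by the filter. Their highest intensities were 245 and 79.5 on the vehicle arrays, 5.90 and 16.5 on the GFP arrays, and 7.86 and 13.2 on the Jnk1 arrays. The counts, median and mean levels against vehicle thus leave out markers that were brightest on vehicle arrays. Mpeg1, a pore-forming protein of phagocytes, had a log2 fold change of −1.30 ± 0.16 between the viruses and 1.56 ± 0.16 for GFP shRNA against vehicle. The Kupffer cell receptors Clec4f and Vsig4 were lower with either virus than with vehicle (−1.98 ± 0.14 and −2.06 ± 0.18 with GFP shRNA). Cd5l, of the same list, was higher with GFP shRNA than with vehicle (0.86 ± 0.11) and at 0.03 ± 0.10 with Jnk1 shRNA. Between the viruses it was lower with Jnk1 shRNA (−0.82 ± 0.11). Of 6 tested markers of B cells, dendritic cells and MHC class II, 4 were lower between the viruses, led by H2-Aa (−1.71 ± 0.17), and their mean level was 6.29 to 6.56 on the Jnk1 arrays, 7.14 to 7.40 on the GFP arrays and 6.55 to 7.10 on the vehicle arrays. Against vehicle 1 (Itgax) was higher and 3 lower with Jnk1 shRNA, and 0 of 6 were called with GFP shRNA by limma. At an unadjusted p under 0.05, 3 were higher with GFP shRNA and 0 lower. As a group these markers lay higher with GFP shRNA than with vehicle: their log2 fold changes ran from 0.16 to 0.50 (median 0.46), and the mean levels did not overlap. Itgax averaged 4.75 (log2) on the vehicle arrays. There it lay below the lowest mean kept by the filter, an intensity of 28.4, and passed it only through the virus arrays. The count of higher markers and the mean levels against vehicle were thus in part fixed by the filter. The part of these cells in the lower Psmb9, Psmb10, Tap1 and Tapbp was not tested.

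Some T and NK cell markers were higher with virus than with vehicle. Of 17 listed, 14 were on the array and 5 were tested, at a mean log2 level of 5.53 to 5.85 on the Jnk1 arrays, 5.26 to 5.82 on the GFP arrays and 4.22 to 4.78 on the vehicle arrays. Against vehicle 4 of the 5 were higher with Jnk1 shRNA and 1 with GFP shRNA. These 4, Nkg7, Gzma, Gzmb and Ccl5, averaged 3.69, 4.45, 3.95 and 4.48 (log2) on the vehicle arrays. There they lay below the lowest mean kept by the filter, an intensity of 28.4, and passed it only through the virus arrays. The counts and mean levels against vehicle were thus in part fixed by the filter. Nkg7, a protein of killer cell granules, was higher with Jnk1 shRNA (2.17 ± 0.21) and with GFP shRNA (1.93 ± 0.23) than with vehicle. Prf1, the pore-forming protein of killer cells, was at −0.31 ± 0.19 and −0.04 ± 0.20. Between the viruses 0 of 5 were called by limma and 1 had an unadjusted p under 0.05, and without GFP array 2 1 was called higher. The defining T cell genes Cd3d, Cd3e, Cd3g, Cd8a and Cd8b1, and Ifng, were below the intensity filter. The part of these cells was not tested. Of 7 hepatocyte markers, 1 was higher and 3 were lower with Jnk1 shRNA than with GFP shRNA, and their mean level was 11.5 to 11.6 on the Jnk1 arrays, 11.7 to 11.8 on the GFP arrays and 11.7 to 11.9 on the vehicle arrays. As deposited 0 were higher and 5 lower, with the arrays scaled to the same median 0 were higher and 1 lower, and without Jnk1 array 2 1 was higher and 1 lower.

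The genes varied together mainly between the groups. Over the 14 arrays the 28 pairs of the 8 genes had a median Pearson r of 0.67 (−0.09 to 0.95), and Psmb9 and Tap1, which share the stretch shown above, had 0.94. Pairs that share no such stretch reached like values, with Tap1 and Tapbp at 0.95 and Psmb9 and Psmb10 at 0.93. After the group means were subtracted the median was 0.25 (−0.27 to 0.78), and Psmb9 and Tap1 had 0.40, below Psmb9 and Psme1 at 0.77. Tapbp and Psmb8 were then at 0.78 and Psmb10 and Psmb8 at −0.27. These values describe 14 arrays that share a normalization.

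The genes whose pattern over the 14 arrays was most like the mean standardized level of the 8 were Parp12 (Pearson r 0.95), Plac8 (0.95), Zbp1 (0.94), Gbp3 (0.94), Igtp (0.93), Ifih1 (0.92), Gbp7 (0.91) and Racgap1 (0.91). Igtp and Gbp7, interferon-inducible GTPases, had log2 fold changes of −1.10 and −0.96 for Jnk1 shRNA against GFP shRNA, given as a description. The other 6 ranged there from −0.21 for Gbp3 to 0.01 for Ifih1, a sensor of viral RNA. The choice of these genes by likeness to the mean level, which was lowest on the vehicle arrays, fixes their direction against vehicle.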

How the data were processed

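Liver RNA of 14 samples was measured on 1-colour Affymetrix mouse arrays. As deposited, the values were intensities on a linear scale, 1 per probe set; the software that made them is not given in the sources. Each deposited array had a trimmed mean of 150.05 to 150.06, while medians spanned 0.48 on the log2 scale. Intensities were therefore quantile normalized, set to at least the 5th percentile (2.01) and log2 transformed. The 64 control probe sets and the dimmest 40% of the other 22626 were left out, which left 13575 with a lowest mean of 28.4. Symbols were taken from GEO's platform table, annotated in 2016, where 20393 probe sets had 1 symbol, 691 several and 1606 none. The 3 group means were fitted to all arrays with limma 3.58.1 in R 4.3.3, with an intensity trend and Benjamini-Hochberg adjustment over all tested probe sets. The fit was tested on simulated data. Samples were grouped by their titles. The members and lists were chosen with earlier results of these data known, and the subunit differences and their alternatives were added after the data were seen. From each list the text names up to 4 genes of smallest p for Jnk1 shRNA against GFP shRNA and for GFP shRNA against vehicle. The number of arrays limits the precision. Scaling, filters, variance models, a spike-in covariate, a replicate block and leaving out each array were tried as alternatives.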

Additional observations from a re-analysis of the deposited data

How the results depend on the processing

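Over 26 alternatives (25 for probe sets that are not their gene's brightest), 20 of the 30 fold changes of member probe sets kept their call and any called direction, and 14 of the 19 called ones stayed called throughout. Without normalization between arrays, 1 member gene was lower for Jnk1 shRNA against vehicle, in place of 0: B2m. There its second probe set, at 0.06 in the fit of the report, turned to −0.21 (adjusted p = 0.0267). Scaling to the same median moved the median of all probe sets for Jnk1 shRNA against GFP shRNA to 0.09, in place of −0.01, and the share of higher among called probe sets to 72.4%, in place of 52.3%. The count of lower probe sets in that comparison was then 1143, against 2147 in the fit of the report, and that of higher ones for GFP shRNA against vehicle was 185, against 278. In that scaling Psme1 for GFP shRNA against vehicle was at 0.34 (adjusted p = 0.0851), while Psmb9 (−0.69), Psmb10 (−0.36) and Tap1 (−0.43) were still called lower between the viruses. In the fit that took the spike-in level as covariate, the calls of Tapbp between the viruses (−0.30, adjusted p = 0.123) and of Tapbp (0.32, 0.0803) and Tap2 (0.72, 0.0769) for Jnk1 shRNA against vehicle were lost. The second Tapbp probe set lost its call between the viruses under 15 of 25 alternatives. The cause of these changes was not tested. The replicate numbers gave no sign of a pairing between groups. The 13 pairs of equal number had correlations of −0.24 to 0.12, and 2 exceeded 0.1. For the 52 pairs of different number they ran from −0.15 to 0.30, and 7 exceeded 0.1. These are not correlations of the log2 intensities themselves, where the mean r of an array with its own group was 0.94 to 0.98. With the number as a replicate block, Psme1 for GFP shRNA against vehicle was at 0.49 (adjusted p = 0.0508), the second Tapbp probe set between the viruses at −0.38 (0.0729), and no other call was lost. The subunit differences called in the report kept their direction under 16 alternatives added after the data were seen, with exact permutation p-values of at most 0.0286. Among these, the values as deposited and those scaled to the same median gave the same differences, since the scale of an array cancels within it. They are not separate tests.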
